A study of Mus musculus with 2 samples.

Results

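The probes described here are those that the array design names by a stretch of the mouse genome, with a chromosome, a start, an end and in most cases a strand letter, instead of by a transcript accession. Every non-control probe with such a name was taken, whatever its signal. There were 16194 of them among 55681 non-control probes (29.1%), and each was printed as 1 spot. The design gives positions on the mouse build mm9. The working name of the group is intergenic noncoding transcripts. Whether an interval lies outside genes, and which gene is nearest, was not analysed here, so intervals are called by their positions.

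Long intergenic noncoding RNAs are transcripts made from stretches between protein-coding genes and not translated into protein. Many were first located from chromatin marks of active transcription, so an early array could know such a transcript only as an interval and might carry probes to both strands of it. They are usually less abundant than messenger RNAs, and their levels often depend on cell type. Dnmt3a is a DNA methyltransferase that places new methyl groups on cytosines, and in osteoclast precursors it is known to take part in the change of gene expression that accompanies osteoclast formation.

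RNA came from osteoclast cultures of female C57BL/6 mice. Nonadherent bone marrow cells were grown in M-CSF, the growth factor of macrophages, for 2 days, and the adherent precursors then received M-CSF with RANKL, the cytokine that drives osteoclast formation. Cells of 1 wild type and 1 Dnmt3a knockout sample were hybridised to 1 single-colour array each. The knockout allele, the cells in which it was deleted, the age of the mice and the number of mice per sample are not given in the sources used here. With 1 array per genotype no difference has a replicate check, no p-value is given, and a genotype difference and a difference between these samples cannot be told apart.

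The signal of the Dnmt3a probe was 7042 for wild type and 1822 for the knockout, 3.79-fold lower after scaling. The position of that probe relative to the deleted exons is not known here. All 9 osteoclast marker genes were above background on both arrays, all 9 were lower in the knockout (median log2 difference -0.58), and their summed signal went from 1140680 to 977479. Of 7 macrophage markers, 6 were on the array and all 6 were higher (median 0.84, summed signal 369324 to 421786). All 6 neutrophil markers were higher (median 0.52, summed signal 62030 to 84221), a median that lies at about 0 once the arrays are scaled by the spike-in probes. Of 6 stromal or osteoblast markers, 2 were higher (median -0.84, summed signal 33786 to 22889). The T cell marker Cd3g was not above background. Summed signals were 530 and 586 for the B cell list, and 2247 and 2651 for the T cell list. The part of these shifts in the interval results was not tested, and in cultures fewer cells of a type and less RNA per cell cannot be told apart.

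Most interval probes were dim, and 5250 of 16181 were above background on both arrays. Most of those 5250 differed by less than 2-fold between the genotypes. A few intervals differed by at least 1.5-fold in the same direction at each of 3 or more such probes. The interval with the largest agreed difference, chrX:47893703-47996700 on the strand lettered R, was 2.64-fold lower in the knockout by the median of 4 probes. On chr14:115443612-115445950, strand F, 3 of 3 probes were lower, with a median of 2.15-fold. The largest agreed rises were 1.87-fold on chr13:108653722-108654406, strand R, and 1.86-fold on chr10:93774693-93893616, strand F, with 3 probes each. Single probes reached 12.2-fold higher and 12.4-fold lower. Of the 12 largest falls among probes no dimmer than the median interval probe, chromosome 18 left out, 11 lay in the parts of the array where such differences gathered. Those parts are the first 33.3% of rows, with 1736 of the 5250 probes, and a corner with 225. The corner was picked after the differences were seen, so the count is partly built into the choice.

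The 16194 probes covered 3543 intervals on 20 chromosomes. Both strands were probed for 1067 intervals, strand F alone for 1251, strand R alone for 1222, and 3 intervals had no strand letter. An interval with its strand letter is called a name below, and there were 4610 names. A name had 1 to 10 probes with a median of 3, 690 names had a single probe, and 147 had 10. Interval length ran from 62 to 7128487 bases, with quartiles at 786.5, 7304 and 21807. The longest stood alone, since the next was 538251 bases. Many intervals overlapped: joined where they touched, they formed 2226 separate stretches, of which 1442 held a single interval and the largest held 14. Probes of 1 name, and of overlapping intervals, may report the same RNA and are not independent.

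Spots marked as uneven on either array removed 13 probes and left 16181. No interval probe was saturated. A spot was counted as detected when the scanner software marked its signal as well above background. In wild type 5458 interval probes (33.7%) were detected, and in the knockout 7192 (44.4%). Both arrays detected 5250 (32.4%), the knockout array alone 1942, the wild type array alone 208, and neither array 8781 (54.3%). The 39468 other probes were detected more often, 59.1% in wild type and 64.8% in the knockout, with 6.64% in the knockout only. The arrays differed at the low end. For wild type and knockout in turn, 308 negative control spots had median signals of 6.06 and 4.24, and the dimmest probe marked above background had 25.8 and 17.7. The part of this floor in the larger knockout count was not tested.

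Detection differed between chromosomes by more than it did between strands. Chromosome 9 had the lowest share on both arrays, 23.9% on wild type and 33.9% on knockout, and the next lowest were chromosome 10 with 27.9% and 38.8%, chromosome X with 28.1% and 39.0%, and chromosome 13 with 29.1% and 38.4%. Chromosome 17 had the highest, 43.0% and 53.4%. The knockout share was above the wild type share on each of these chromosomes. Strand F probes were detected at 32.8% and 43.5%, and strand R probes at 34.7% and 45.4%. When probes were cut into 5 equal groups by interval length, the shortest intervals, 62 to 2341 bases, had 30.3% and 40.4%, and the other groups lay between 33.5% and 35.5% on wild type and between 44.7% and 46.2% on knockout.

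**Figure D1:**
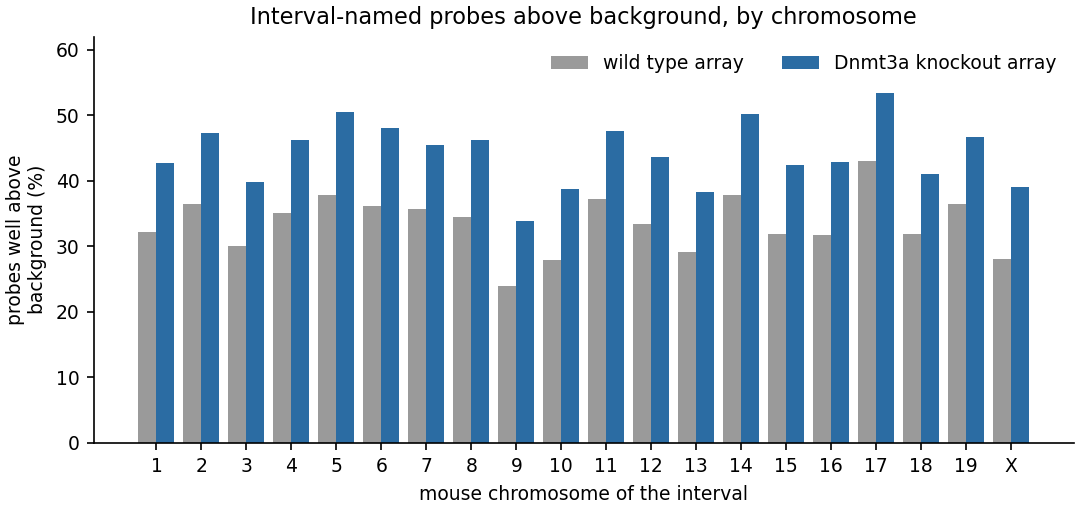
Share of interval probes marked well above background, in percent, on the wild type and knockout arrays, by chromosome. The knockout array lies above the wild type array on each chromosome, from 33.9% against 23.9% on chromosome 9 to 53.4% against 43.0% on chromosome 17.

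The top block of the array, the first 33.3% of its rows, was examined apart, because single-spot differences gathered there. In the top block 34.9% of 5391 interval probes were detected on wild type and 47.0% on knockout. In the remaining rows the shares were 33.2% and 43.2% of 10790. Detection on the knockout array alone took 14.8% of the probes in the top block and 10.6% elsewhere. The share detected on both arrays was alike, 32.2% and 32.6%. The block thus differed in probes seen on 1 array, and the part of the print position in that was not tested.

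Levels are log2 signals relative to the 75th percentile signal of the same array, which was 584 for wild type and 572 for the knockout. Differences are knockout minus wild type on that log2 scale. Among probes detected on both arrays, interval probes had a median signal of 118 and 123, against 725 and 710 for the other probes. Their median wild type level was -2.30, against 0.31 for the others. The median difference was 0.08 for interval probes, 0.02 for the other probes and 0.03 for all 28203 probes detected on both arrays. A difference above 0 was found for 3216 of 5250 interval probes (61.3%) and for 53.8% of the others. The scanner software's error of a difference, which covers the measurement of the spots and not the variation between cultures, had a median of 0.22 for interval probes.

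The median shift varied by chromosome and by level, and whether it varied beyond the spread of probes was not tested. Within a chromosome the SD of the difference ran from 0.35 on chromosome 6 to 0.54 on chromosome X. Median differences ran from 0.01 on chromosomes 19 and X to 0.12 on chromosome 8, and they lay between 0.06 and 0.09 in each of the 5 length groups. By mean level, interval probes below -3 had a median of 0.10 and those above 2 had 0.05, while the other probes had 0.05 and 0.03 in the same ranges. The SD of the difference was 0.43 over interval probes and 0.37 over the others. Scaled by the 8 spike-in probes, whose median shift between the arrays was 0.53, all differences move down by that amount, the median of interval probes is -0.45, beside -0.50 for all probes, and every rise under 0.53 named below turns into a fall.

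**Figure D2:**
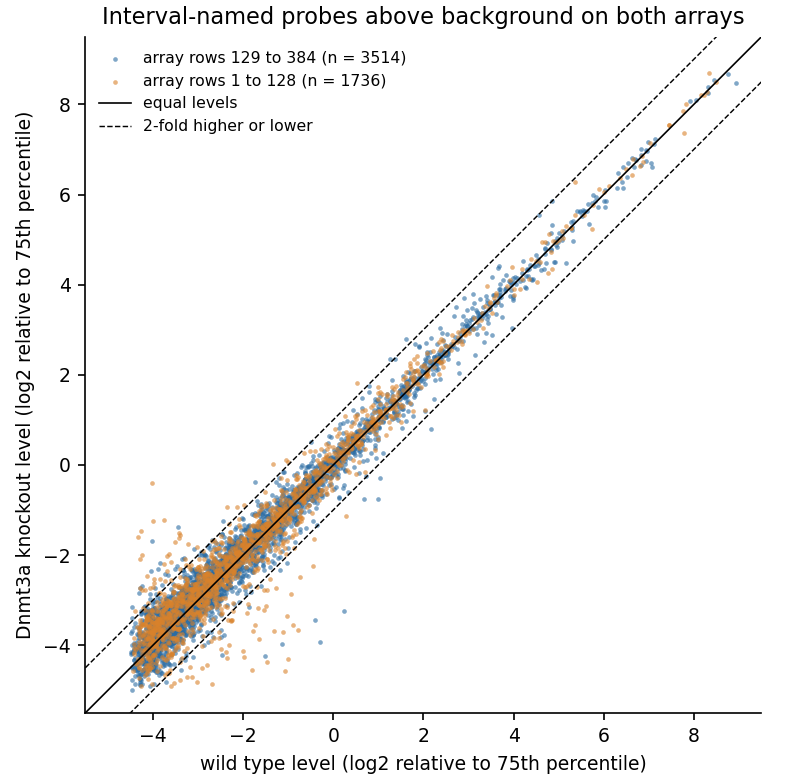
Knockout level against wild type level (both log2 relative to the array's 75th percentile) of the 5250 interval probes detected on both arrays, with orange points for the 1736 in the top block of rows, blue points for the other 3514, a solid line of equal levels and dashed lines at 2-fold. Most points lie between the dashed lines about a median difference of 0.08, and the points beyond them sit mostly at levels below -2 on at least 1 array.

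A 2-fold difference was used as the size threshold, with no test behind it. Among 5250 interval probes detected on each array, 77 (1.47%) passed it upwards in the knockout and 77 (1.47%) downwards. Over all 28203 probes the shares were 1.01% and 0.897%. By mean level the comparison with the other probes went both ways. At -3 and below 2.10% of 1718 interval probes were higher and 1.92% lower, against 2.35% and 2.66% of 2936 other probes. Between -3 and -2 it was 2.42% and 2.51%, against 2.11% and 2.00%, and between -2 and -1 it was 0.758% and 1.14%, against 0.975% and 0.663%. Between -1 and 0 it was 0.544% and 0.363%, against 0.549% and 0.431%. Between 0 and 2 it was 0.342% and 0.514%, against 0.429% and 0.306%. Above a level of 2, 1 of 409 interval probes (0.244%) was higher and 0 were lower, against 0.299% and 0.0272% of 7353 other probes. The member nearest to the threshold inside it had a difference of 1.0045 among rises and -1.0106 among falls, and those nearest outside had 0.9982 and -0.9987.

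Where a spot lay on the array moved with the count of calls. In the top block, 45 interval probes (2.59%) were 2-fold higher and 53 (3.05%) were 2-fold lower of 1736, beside 1.46% and 1.59% of all probes there. In the other rows the counts were 32 (0.911%) and 24 (0.683%) of 3514, beside 0.773% and 0.542% of all probes. The corner formed by the last 33.3% of rows and the last 20 columns held 8 of those 24 lower probes and 1 higher probe. There 3.56% of 225 interval probes were 2-fold lower, against 2.05% of all probes. The corner was picked after the map of differences was seen. By strand, 51 (1.98%) were higher and 42 (1.63%) lower of 2574 on strand F, and 26 (0.973%) were higher and 35 (1.31%) lower of 2671 on strand R, a difference that was not tested.

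**Figure D3:**
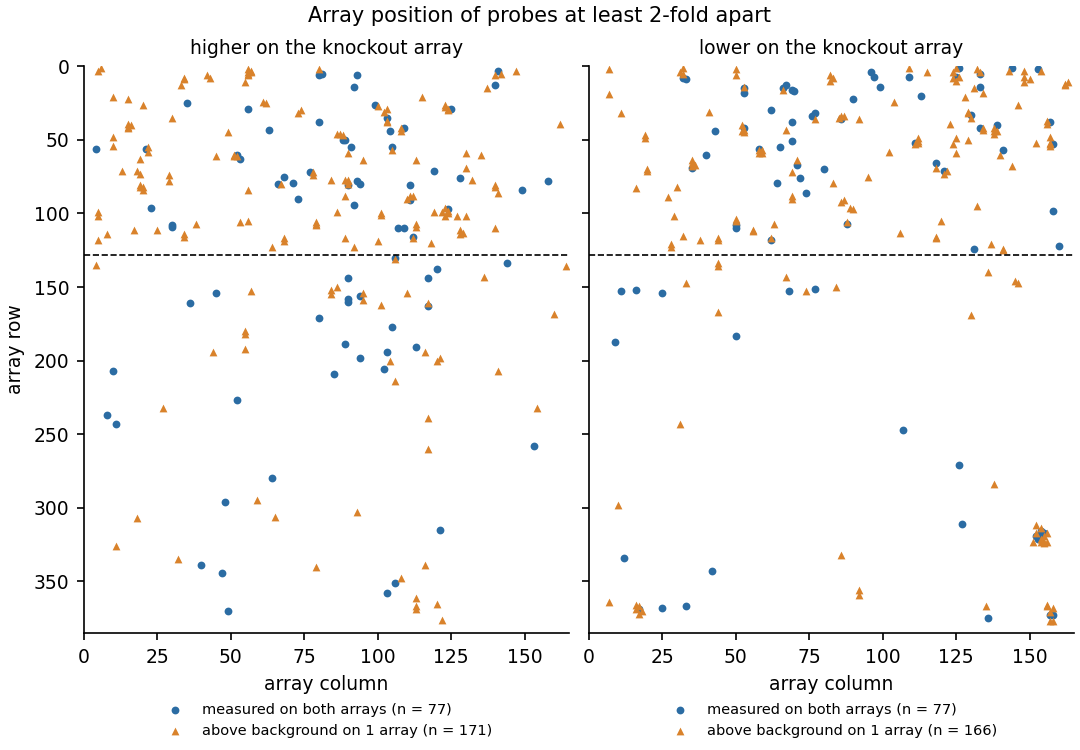
Array row against column of the interval probes at least 2-fold higher (left) or lower (right) in the knockout, with circles for the 77 and 77 probes detected on both arrays and triangles for the 171 and 166 bounds of probes detected on 1 array. Points crowd above the dashed line that closes the top block, the first 33.3% of rows, and lower probes also gather in the corner of the last 20 columns.

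Probes of the same name gave a check that a single spot cannot. Among the 77 higher probes, 47 had another probe of their name detected on both arrays, the median of those partners lay above 0 for 39, and it passed 1.5-fold for 8 (17.0%). Among the 77 lower probes, 56 had such a partner, the partner median lay below 0 for 23 and passed 1.5-fold for 10 (17.9%). The median partner difference was 0.20 for the rises and 0.05 for the falls, so the partners of the falls were not lower on balance. Beside these, 61.3% of all interval probes detected on both arrays lay above 0, with a median of 0.08. A share of partner medians past 1.5-fold over all interval probes was not computed. In the top block, 4 of 28 rises (14.3%) and 2 of 32 falls (6.25%) had a partner median past 1.5-fold. In the other rows it was 4 of 19 (21.1%) and 8 of 24 (33.3%). Probes of 1 name past 2-fold are partners of each other, so 1 name can count several times. All 4 detected probes of chrX:47893703-47996700 (R), 1 of them in the top block, were 2-fold lower and count in this way. The shares are therefore not over independent probes. Each of the 8 falls in the corner had a partner, and the partner median passed 1.5-fold for 0 of them.

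For names with 3 or more probes detected on both arrays, of which there were 688, the SD of the differences within a name had a median of 0.19 and a 90th percentile of 0.45. The 419 other accessions with 3 or more probes had a median SD of 0.10. The median of a name passed 1.5-fold upwards for 32 names and downwards for 18. Every detected probe passed 1.5-fold in the same direction for 10 names that rose (1.45%) and 11 that fell (1.60%). Over all 1107 names and accessions with 3 or more probes the share was 1.26% in each direction, but 688 of those are the interval names themselves. Among the 419 other accessions every probe passed 1.5-fold upwards for 4 and downwards for 3. This rule was chosen after the values had been seen.

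The deepest agreed fall was on the strand R of chrX:47893703-47996700, an interval of 102998 bases. Its 4 detected probes of 9 had wild type signals of 712, 1204, 2637 and 931 and knockout signals of 261, 470, 993 and 340. Every probe was lower in the knockout, by nearly the same factor, although the probes differ in brightness so that the ranges of the genotypes overlap. Of the 4 probes 1 was in the top block. The differences ran from -1.42 to -1.33 with a median of -1.40 (SD 0.05 over probes). The strand F name of the same interval had a median of -0.58 over 3 probes.

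On chr14:115443612-115445950, strand F, the signals went from 288 to 127, from 193 to 88.2 and from 451 to 227, with 0 of 3 probes in the top block. The median difference was -1.10. The fall did not extend over most of its neighbours. In 3 names of the same overlapping stretch, 10 probes had a median of 0.06 and a range of -0.85 to 0.30. Of these 10 probes, 4 were below 0, and the lowest passed 1.5-fold. On chrX:54627918-54638568, strand R, all 5 probes were detected, wild type signals ran from 219 to 676 and knockout signals from 119 to 403, and the median was -0.85. There the neighbours moved the same way, as 7 of 7 probes in overlapping names were below 0 with a median of -0.47.

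Among brighter intervals, chr19:5834117-5835940, strand R, went from 2391 to 1329, from 2766 to 1587 and from 1127 to 636, a median of -0.80 with an SD over probes of 0.02. Of 22 probes in the other names of this stretch, 20 were below 0, with a median of -0.39. At chr5:35975265-35982561 both strands fell. The 4 strand F probes went from 634 to 345, from 831 to 496, from 864 to 501 and from 1980 to 1211, with a median of -0.73. The 4 strand R probes were brighter, from 4019 to 20941 on wild type and from 2337 to 12753 on knockout, with a median of -0.69. The 5 remaining agreed falls had medians from -0.78 to -0.96: chr15:68170864-68171544 (R) at -0.93, chr10:83181374-83249774 (F) at -0.84, chr1:183832694-183834125 (R) at -0.82, chr11:51854060-51903278 (F) at -0.78, and 1 interval on chromosome 18 that is counted and not named.

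The agreed rises were smaller, with medians from 0.67 to 0.90. On chr13:108653722-108654406, strand R, the signals went from 373 to 683, from 253 to 418 and from 273 to 513. The median was 0.90, and 8 of 9 probes in overlapping names were above 0 with a median of 0.34. On chr10:93774693-93893616, strand F, the signals went from 290 to 598, from 240 to 438 and from 108 to 188, also with a median of 0.90. A single probe of the overlapping chr10:93819821-93976621, strand F, rose by 1.37, and the only other detected probe in overlapping names was at 0.21.

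On chr16:43623175-43624069, strand F, the signals went from 597 to 992, from 361 to 568 and from 909 to 1368, with a median of 0.68. Of 14 probes in overlapping names 12 were above 0, but the range ran from -3.50 to 1.21. The other agreed rises were chr11:112905201-113062945 (R) at 0.87, chr11:119250824-119286324 (F) at 0.86, chr12:4469975-4482792 (R) at 0.81, chr17:26911397-26917047 (R) at 0.79, chr8:82836971-82849309 (R) at 0.78, chr7:111530578-111539097 (R) at 0.69 and chr14:73746324-73749119 (R) at 0.67. For the last, 8 of 8 probes in overlapping names were above 0 with a median of 0.41. For chr12:4469975-4482792 the only probe in an overlapping name was at -0.14. These lists depend on the scaling and background correction: with the spike-in probes 0 of the 10 rises and all 11 falls stayed past 1.5-fold at every probe, and with normexp background correction 1 and 5 did. The spike-in counts were fixed in advance, because that scaling lowers every difference by 0.53. A fall could not leave the list, and the lowest probe of a rise was at most 0.82, too small to stay.

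**Figure D4:**
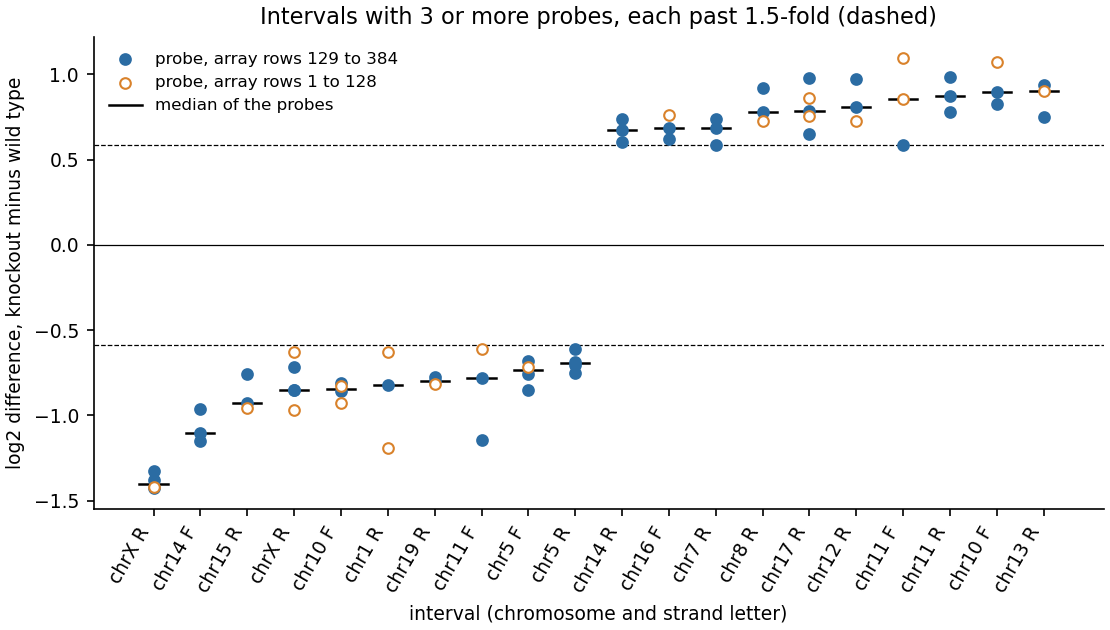
Log2 difference, knockout minus wild type, of each detected probe (open points for the top block of rows, filled points for the others) in the intervals where every probe passed 1.5-fold (dashed lines) in 1 direction, with a bar at the median; the chromosome 18 interval is left out. Falls run from a median of -1.40 on chromosome X to -0.69, and rises from 0.67 to 0.90.

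Both strands of an interval were often detected. Of the 1067 intervals probed on both strands, both had a detected probe in 518, strand F alone in 209, strand R alone in 193 and neither in 147. Where each strand had at least 2 detected probes, which held for 212 intervals, the strand medians had the same sign in 134 (63.2%) and lay a median of 0.17 apart. Across those intervals Pearson's r was 0.24 and Spearman's rho 0.23, as a description, since all points come from the same pair of arrays. Both strands of chr6:4841700-4847400 were higher, strand F with a median of 0.63 over 5 probes and strand R with 0.74 over 2, whose signals went from 5006 to 7867 and from 4345 to 7399.

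In other intervals the strands were apart. The widest gap was at chr1:95871175-95886625, with a strand F median of 0.64 over 4 probes and a strand R median of -0.91 over 2. At chr10:83181374-83249774 the strand F median was -0.84 over 4 probes and the strand R median 0.31 over 3. At chr5:74487385-74497428 strand F had a median of -0.77 and strand R 0.03. Within that strand F name, 9 of 10 probes were detected and they split: 5 lay between -0.97 and -0.77 and the other 4 between -0.10 and 0.19, with 1 and 2 of them in the top block. That name was picked after its values were seen. At chr6:83368261-83407280 strand F had 0.02 and strand R 0.66. Whether probes of opposite letters report separate RNAs was not tested.

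**Figure D5:**
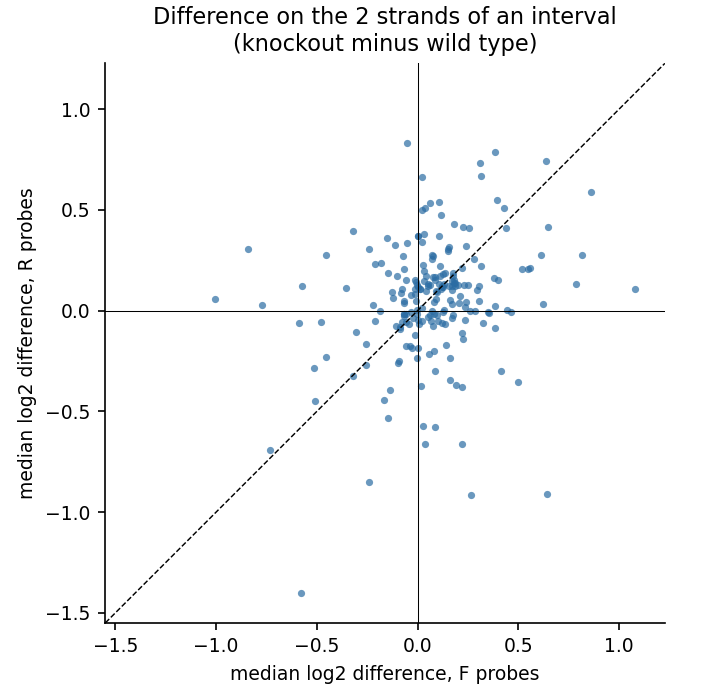
Median log2 difference, knockout minus wild type, of strand R against strand F for the 212 intervals with at least 2 detected probes on each strand. Points lie on both sides of 0 on each axis, with 134 of 212 showing the same sign on both strands under the scaling by the 75th percentile.

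The intervals with the most detected probes give the fullest view of 1 locus each. At chr11:95627874-95640824, 16 of 19 probes were detected and all 16 were above 0, from 0.0049 to 0.88, with a median of 0.43 on strand F and 0.51 on strand R. At chr8:72663625-72673010, 16 of 18 were detected and all were above 0, with medians of 0.23 and 0.41. At chr17:26911397-26917047, all 10 strand F probes were detected, with wild type signals of 525 to 3337 and knockout signals of 651 to 4258, and a median of 0.39 against 0.79 over 5 dimmer strand R probes. At chr11:97505439-97522274, 5 of 15 detected probes were above 0, with a median of -0.03 and a range of -0.61 to 0.48. With the spike-in scaling the medians of the first 2 intervals and of strand F on chromosome 17 lie below 0.

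Single probes with mean levels at or above the median of interval probes had the following largest rises. The probe of chr3:85842798-85887216 (F) went from 36.1 to 433, 12.2-fold, in row 42, and it was the only probe of its name. The probe of chr1:193875525-193978800 (R) went from 115 to 300.3, a difference of 1.42 (scanner error 0.22), in row 5, where the partner probe was at 0.26. Probes of chr10:69842010-69842465 (F), from 231 to 582, and chr6:136440100-136450050 (F), from 839.6 to 2020.2, rose by 1.36 and 1.30, both in the top block and with no detected partner. Outside those rows stood chr11:53574182-53574644 (R), from 1795 to 3995, and chr8:35143801-35144482 (F), from 1397 to 2937, which had no detected partner either.

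On chr5:31856417-31916317, strand F, 1 probe went from 108 to 241 and another from 90.1 to 179, differences of 1.19 and 1.02, in rows 258 and 296. The other probes of the name were at 1.13 and -0.03, so 3 of 4 were higher. Its strand R had a median of 0.11 over 2 probes. The nearly identical interval chr5:31856417-31916414 had medians of 0.26 over 3 strand F probes and -0.91 over 2 strand R probes, so the rise did not extend to the other names at this position. The probe of chr12:74135916-74142780 (F), from 133 to 302, was higher by 1.21 in row 6, and its only detected partner of 9 was at 0.31.

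Of the 12 largest single falls among probes at or above that level, 5 had detected partners none of which passed 1.5-fold in either direction, and 4 had no detected partner. The probe of chr15:32167516-32174417 (R) went from 473 to 37.5 (-3.63) in row 373 and column 157, and its 3 partners lay between -0.70 and -0.38. The probe of chr5:143201822-143204033 (R) went from 688 to 60.5 (-3.48) while its partners were at -0.03 and 0.37. The probe of chr5:137392195-137426421 (R) went from 443 to 52.9 (-3.04) while 4 partners lay between -0.29 and 0.14. The probe of chr15:58928225-58939975 (F) went from 1153 to 340.4 (-1.73) with its partner at 0.11. These 4 spots all lay in the corner named above, in columns 153 to 157.

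Other large falls lay in the top block. The probe of chr3:40439525-40509975 (F) went from 285 to 55.6 (-2.33) while 3 partners lay between 0.25 and 1.86. Those of chr4:133368314-133380210 (R) and chr17:3213918-3257944 (F) fell by 1.78 and 1.46 on the log2 scale, each with 1 partner at -0.15 and -0.13. Falls with no detected partner were chr9:24292762-24307562 (F) at -2.88, chr10:120116843-120182671 (F) at -2.67, chr12:12876192-12918398 (F) at -1.92 and chr13:66381200-66410200 (F) at -1.75, in rows 1 to 32. Of these 12 falls, the strand R probe of chrX:47893703-47996700 was the only one whose partners all passed 1.5-fold.

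For a probe detected on 1 array the fold is a lower bound. The dim side is set to the spot's own scaled signal or to the dimmest signal marked above background on that array, whichever is higher. Among the 1942 interval probes detected on the knockout array alone, 171 (8.81%) were at least 2-fold higher, beside 9.25% of all such probes. Of 208 detected on the wild type array alone, 166 (79.8%) were at least 2-fold lower, beside 76.9% of all such probes. In the top block these were 16.2% of 798 and 87.4% of 143, beside 16.3% and 86.1%. In these shares, over all rows and in the top block, the interval probes stood near the background.

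The largest bounds in the knockout's favour were on chr5:53931541-53945241 (R), from 6.24 to 547, at least 21.6-fold higher with a partner at 1.21, and chr17:32035750-32056000 (F), from 9.18 to 389, at least 15.4-fold higher with a partner at -0.43. Those of chr13:34693404-34717987 (F), chr2:94046243-94070067 (F) and chr17:9898206-9919226 (R) were at least 15.1-fold, 14.6-fold and 12.7-fold higher. All 5 lay in the top block. The largest bounds the other way were chrX:34360500-34388500 (F), from 397 to 10.6, at least 22.0-fold lower with partners at -0.34 and -0.05, and chr7:57115122-57121735 (R), from 347 to 4.70, at least 19.2-fold lower. For chr14:43929100-43945100 (R), chr13:112207480-112213280 (R) and chr5:52186651-52187148 (R) the bounds were 16.4-fold, 14.9-fold and 13.2-fold. Of these lower bounds, those on chromosomes X and 13 lay in the top block, and those on chromosomes 7 and 14 in the corner named above. That corner held 17 lower and 0 higher bounds of at least 2-fold. The share over all probes there was not computed.

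The brightest interval probes stayed within 1.5-fold of each other on both arrays. The probe of chr17:39982023-39983277 (F) had 253656 on wild type and 232126 on knockout, and that of chr17:17481706-17482457 (R) had 204599 and 213832. The probe of chr19:5801802-5802597 (R) had 285983 and 202458, a difference of -0.47 with partners at -0.46 and -0.41. The probe of chr8:48476637-48492537 (F) had 188464 and 236435, a difference of 0.36 with a partner at 0.20, and below 0 with the spike-in scaling. The probe of chr6:83368261-83407280 (F) had 208634 and 207698.

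Of the 3 intervals with no strand letter, chr17:12941161-12944859 was detected at 5 of 5 probes. Its signals went from 105 to 173, from 120 to 151, from 284 to 390, from 130 to 193 and from 143 to 252, all higher in the knockout, with a median of 0.60 and a range of 0.36 to 0.84. The 3 probes of chr3:34856791-34869544 were not above background on either array. Of the 5 probes of chr6:52032838-52033444, 1 was above background, on the knockout array alone.

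The same probe series holds 57 probes named by an RNA instead of a position, detected at 43.9% on wild type and 47.4% on knockout, and 23 of them were detected on both arrays. NEAT1, the scaffold RNA of nuclear paraspeckles, was lower at 5 of 5 probes with a median of -0.69. NEAT2 was lower at 3 of 3 with a median of -0.47, and TUG1 at 4 of 4 detected probes with -0.35. XIST, which coats the inactive X chromosome, had a median of -0.00 over 5 probes.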

How the data were processed

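Spot intensity in the scanner files was background-subtracted, per the file headers, with Agilent Feature Extraction 10.10.1.1, with probe positions on mm9, and the submitters' processing notes name version 9.1. No scaling between arrays is part of the deposited intensity. Per the labels, each array holds 1 sample, and samples were grouped by genotype. The deposited value table is the same intensity on a linear scale, multiplied by a factor per array (1.55 and 1.54) whose choice is unknown (column medians 59.6 and 66.5). It has no centring and served as an alternative.

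The main setting was log2 of the processed signal minus each array's 75th percentile over non-control spots. Marked spots were left out. Background correction by normexp (limma 3.58.1, R 4.3.3, offset 50) used the median spot signal, because a mean signal was planned but is not a column of the files. The other steps ran in Python 3.11.15 (pandas 2.3.3, numpy 2.4.6). The calling was checked on simulated data, with changes well past the threshold in probes brighter than the median spot. The simulated spread was smaller than in the data. The check therefore does not cover dim probes, changes near the threshold or effects of array position. With 1 array per genotype, calls are by size and the number of arrays limits the precision.

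The members and lists were chosen with earlier results of these data known. Named probes are the 12 largest rises and 12 largest falls among detected probes in the brighter part by mean level (median and up), the 5 largest bounds in each direction, the 5 brightest and the 3 intervals with most detected probes (a tie made 4). Chromosome 18 probes (571) are counted and not named. The reference tables were of another build (GRCm38), so the nearest gene, lists of neighbouring genes and sequences were not used here. Alternatives covered scaling, background, filter, marked spots, source of the values and array rows. The result of 1 marker list is not reported here.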

Additional observations from a re-analysis of the deposited data

How the results depend on the processing

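No paired analysis was possible because there is 1 array per genotype. The median difference, 0.08 as reported, was 0.02 with quantile normalization, 0.05 with normexp, 0.02 with no filter and 0.15 with the looser mark of a positive and significant signal. The counts of 2-fold rises and falls (77 each) and of bounds (171 higher, 166 lower) stayed within 1.5 times with the deposited table, quantile normalization and marked spots kept, where these were run. The deposited table could hardly give other counts, because the scaling removes its factor per array. Keeping marked spots could add at most 13 interval probes. Spike-in scaling gave a median of -0.45, 23 rises, 352 falls and 85 higher bounds. Normexp gave 17 rises and 28 falls. With no filter on dim probes there were 1889 rises, 528 falls and a median SD of 0.56 within a name in place of 0.19. With that looser mark, 9012 probes were detected on both arrays, with 901 rises and 316 falls. Without the top block of the array there were 32 rises, 24 falls, and 42 higher and 41 lower bounds, which has fewer probes tested by construction. For the other settings the cause was not tested. The share of 2-fold calls that were higher was 50% as reported, 6.13% with the spike-in probes, 36.8% with quantile normalization, 37.8% with normexp, 78.2% without a filter and 74.0% with the looser mark. The 24 named rises and falls kept their sign under all 4 settings tried on them, and 13 stayed past 2-fold with the spike-in probes and 18 with normexp. Every named fall stayed past 2-fold in both settings. With the spike-in probes, which move all differences down, the only named rise to stay was chr3:85842798-85887216 (F), at 3.08, and the next highest was at 0.89. With the deposited table and the spike-in probes the sign could not change. The first differs by a factor per array that the scaling removes, and the spike-in shift of 0.53 is smaller than each named difference. Of the names with agreeing probes, 10 rises became 7 with quantile normalization and 6 without the top block (4 shared), and 11 falls became 88 with the spike-in probes and 7 without that block (6 shared). That rule and its settings were chosen after seeing the data. The comparison with the nearest gene was not run, because no gene positions on mm9 were used here. Low signal limits most of these values, since 54.3% of interval probes were above background on neither array.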
